A study of Mus musculus with 5 samples.

Results

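The proteasome genes of mouse colon were followed over the weeks of a model of colon cancer that arises in an inflamed bowel. They were chosen by symbol, as every gene of the deposited table whose name starts with Psma, Psmb, Psmc, Psmd, Psme, Psmf or Psmg and a number. Of 56 such rows 5 carry a pseudogene name and were left out, so 51 of the 52382 genes are described. Of these 51, 47 had a mean of at least 1 count per 1000000 counted reads (CPM) over the libraries, as did 14720 of all genes. Psmc3ip, a meiotic recombination factor, and Psme3ip1, a protein that binds Psme3, match by name and are not subunits.

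Mice in this model receive injections of azoxymethane (AOM), a mutagen, and then cycles of drinking water with dextran sulfate sodium (DSS), an agent that damages the lining of the colon. All libraries came from wild-type male C57BL/6 mice, with AOM at 8.5 mg per kg on days 1 and 8 and DSS at 1.5% where given. An age of 8 to 12 weeks is listed alike for every group from W0 to W11, so it is not read as the age at sampling. W0 is the control without AOM or DSS, W2 is labelled as given AOM alone, and W5, W8 and W11 are labelled as given both agents, each library being named for its week. There is 1 library per week, in 1 labelled batch, and 3 mice per group were selected, with no statement on pooling. W0 is described both as sampled ahead of treatment and as killed together with the treated mice, so the age of those mice relative to the others is not known. No difference between weeks has a replicate check or a test. "Rose" and "fell" are used here only for a difference of at least 2-fold on the scale of log2(CPM + 1). Intervals are exact 95% intervals that cover counting error only.

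The proteasome degrades proteins tagged with ubiquitin. Its 20S core is a stack of rings built from alpha and beta subunits, and the cutting sites lie on the beta subunits Psmb5, Psmb6 and Psmb7. The 19S particle caps the core, with a ring of Psmc ATPases that unfold the substrate and Psmd subunits that bind and remove ubiquitin. Under interferon gamma, cells make the alternative beta subunits Psmb8, Psmb9 and Psmb10, which take the places of Psmb5, Psmb6 and Psmb7 and form the immunoproteasome, known for cutting peptides for MHC class I. Psme1 and Psme2 form PA28, an interferon-induced activator that docks on the core.

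The sequences around the transcription starts of the immunoproteasome and PA28 genes, and of the subunits that Psmb9 and Psmb8 replace, are shown because the results below turn on these 6 genes. Each runs from 120 bases before to 30 bases after the annotated start, on the gene's own strand, in RefSeq on GRCm38.p6. Capitals mark a match to an interferon-stimulated response element (ISRE, GAAANNGAAA), a gamma-activated site (GAS, TTCNNNGAA) or an antioxidant response element (ARE, TGACNNNGC), the motif bound by the Nfe2l factors. Psmb7 is named without a sequence.
Psmb9, chr17:34187301-34187450, minus strand: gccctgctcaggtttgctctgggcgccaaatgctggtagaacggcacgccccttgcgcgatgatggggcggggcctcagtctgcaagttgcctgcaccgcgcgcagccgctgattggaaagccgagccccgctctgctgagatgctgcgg
Psmb8, chr17:34198075-34198224, plus strand: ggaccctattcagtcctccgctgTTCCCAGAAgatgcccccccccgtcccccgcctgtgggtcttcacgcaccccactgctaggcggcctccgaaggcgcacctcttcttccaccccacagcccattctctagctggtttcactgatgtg
Psme1, chr14:55578374-55578523, plus strand: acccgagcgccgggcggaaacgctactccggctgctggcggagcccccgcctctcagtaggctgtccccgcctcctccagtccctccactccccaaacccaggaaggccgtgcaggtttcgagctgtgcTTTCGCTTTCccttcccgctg
Psme2, chr14:55591072-55591221, minus strand: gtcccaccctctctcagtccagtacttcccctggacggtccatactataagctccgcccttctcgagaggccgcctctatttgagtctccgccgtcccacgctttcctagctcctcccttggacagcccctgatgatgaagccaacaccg
Psmb6, chr11:70525237-70525386, plus strand: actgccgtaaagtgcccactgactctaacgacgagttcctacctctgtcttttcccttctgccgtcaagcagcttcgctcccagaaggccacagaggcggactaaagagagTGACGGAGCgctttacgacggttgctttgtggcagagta
Psmb5, chr14:54617966-54618115, minus strand: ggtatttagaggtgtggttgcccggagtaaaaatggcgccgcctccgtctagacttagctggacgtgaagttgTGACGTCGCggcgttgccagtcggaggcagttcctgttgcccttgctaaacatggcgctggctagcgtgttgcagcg

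Each motif was sought on both strands in the whole windows of 250 bases before to 50 after the start, where 43 of the 51 genes had an entry. The ISRE letters were in the windows of Psmb3, Psmd4, Psmd9, Psme1 and Psmg4, against 3.44% of all 32851 windows. In Psme1 they lie 10 to 19 bases past the start and read on the opposite strand, hence TTTCGCTTTC above. The GAS letters were in the windows of Psmb8, Psmd2 and Psmg1, against 8.30% of all windows. The ARE letters were in 6 windows (Psmb5, Psmb6, Psmc6, Psmd9, Psmd12 and Psme4), against 12.4% of all windows. The windows of Psmb9 and of the peptide transporter gene Tap1, which are transcribed in opposite directions, share 275 of their 300 bases. None of the 3 motifs was in the window of Psmb9 or of Psme2, which says only that these letters are not there.

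The libraries held between 13389184 and 20379429 counted reads, and 20111 to 21245 genes were detected in each. The labels name colon tissue as well as intestinal epithelial cells. All 7 epithelial markers were measured in every library, at a summed 16365 CPM at W11 and 24549 CPM at W0. The 5 smooth muscle markers summed to between 2472 CPM at W8 and 5895 CPM at W2, so the RNA was not of epithelial cells alone. Of 14 leukocyte markers Ms4a1 and Itgam were listed at 0 in every library, and the rest summed to 1948 CPM at W0, 1189 CPM at W2, 5472 CPM at W5, 3611 CPM at W8 and 4140 CPM at W11. The plasma cell gene Jchain made up most of these sums, and without it the other 11 markers summed to 726 CPM at W0, 590.1 CPM at W2, 1078 CPM at W5, 1338 CPM at W8 and 1364 CPM at W11. Most of that remainder was Lyz2, at 480 CPM at W0, 342 CPM at W2, 746 CPM at W5, 923 CPM at W8 and 957 CPM at W11. In bulk RNA, more cells of a type cannot be told apart from more RNA of a gene per cell.

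Across the time series, proteasome genes were more often above the control than below it, with Psmb8 and Psmb9 highest at W2 and the constitutive subunits, when summed, highest at W11. Psmb9 and Psme2 rose at W2, which is 2 of 47 measured genes against 3.41% of all genes. At W5 Psma4 rose (1 of 47, against 6.63% of all genes), and at W8 Psmc3ip rose (1 of 47, against 7.79%). At W11 14 of 47 rose, or 29.8%, against 11.3% of all genes. None fell relative to W0 in any week, against 4.23% (W2), 1.87% (W5), 3.85% (W8) and 16.9% (W11) of all genes. All 4 comparisons share the W0 library, so they are not independent of each other.

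**Figure D1:**
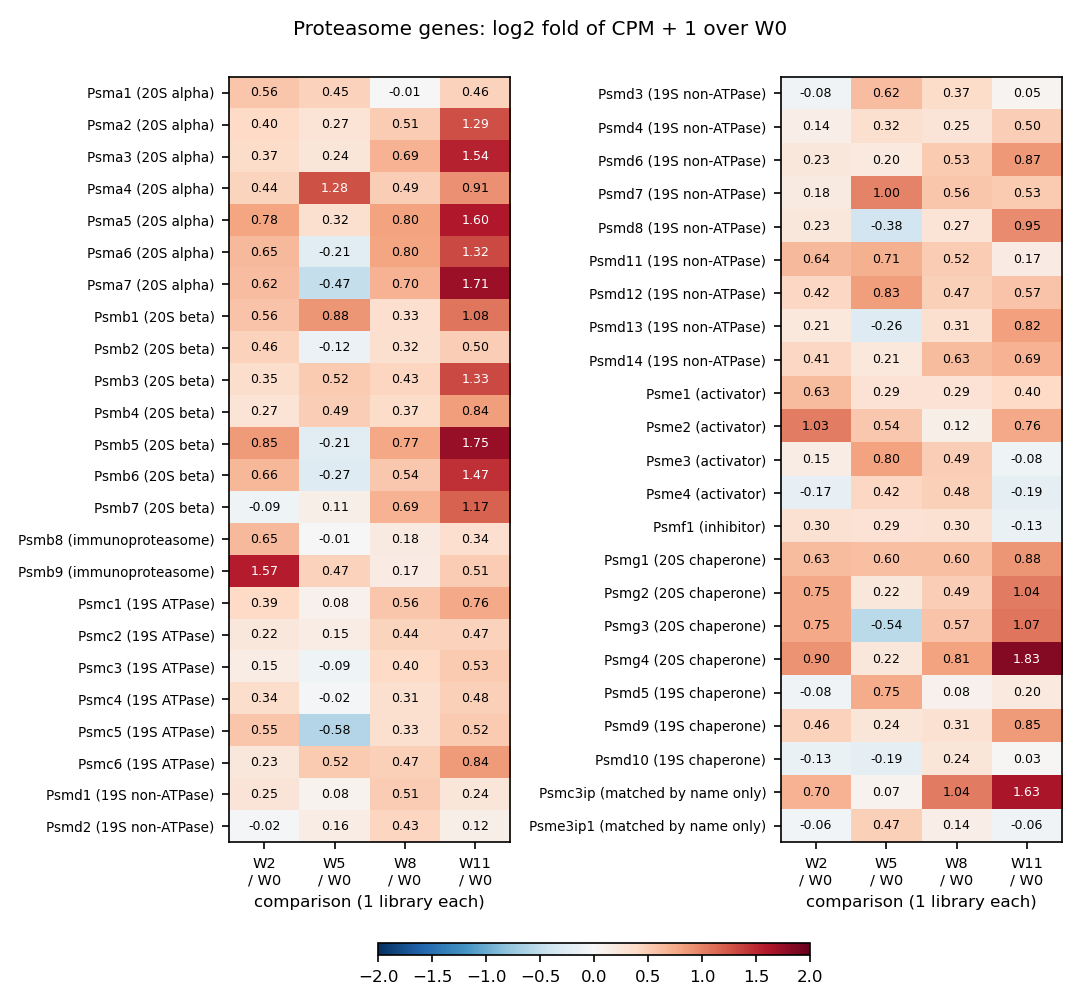
Log2 fold of CPM + 1 over W0 for the 47 measured proteasome genes (rows, with their role in brackets) at W2, W5, W8 and W11 (columns, 1 library each), with the colour scale running from blue (lower than W0) to red (higher). Psmb9 has its largest value at W2 (1.57), while most 20S subunits have theirs at W11, up to 1.75 for Psmb5.

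With the looser criterion of 1.5-fold, 15 of 47 genes were higher at W2 (12.2% of all genes), 9 were so at W5 (18.5%), 10 at W8 (17.7%) and 25 at W11 (21.1%). The shares at W5 and W8 were thus near those of all genes. By the same criterion 0 of 47 were lower in each week, against 13.9%, 8.23%, 10.4% and 31.2% of all genes from W2 to W11. The 15 genes at W2 were Psma5, Psma6, Psma7, Psmb5, Psmb6, Psmb8, Psmb9, Psmd11, Psme1, Psme2, Psmg1, Psmg2, Psmg3, Psmg4 and Psmc3ip.

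Psmb9, the subunit that replaces Psmb6, was at 69.5 CPM at W0, 208 CPM at W2, 96.4 CPM at W5, 78.2 CPM at W8 and 99.4 CPM at W11. W2 stands alone as the high library, and the later weeks lie nearer to the control. The ratio of W2 to W0 was 2.99 (2.78 to 3.22), from 3039 reads at W2 and 957 at W0, and the log2 fold was 1.57. At W5, W8 and W11 the log2 fold over W0 was 0.47, 0.17 and 0.51. Relative to W2, Psmb9 fell at W5, W8 and W11, and it was the only member to do so at all 3 weeks: 5 of 47 genes fell relative to W2 at W5 (4.46% of all genes), 1 at W8 (5.56%) and 1 at W11 (13.4%). None of the 47 rose relative to W2 at W5 or W8, against 9.44% and 10.7% of all genes.

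Psmb8, which replaces Psmb5, did not reach 2-fold in any week. It was at 11.8 CPM at W0, 19.1 CPM at W2, 11.7 CPM at W5, 13.4 CPM at W8 and 15.1 CPM at W11. W2 was again the highest library, with a ratio to W0 of 1.62 (1.33 to 1.98), a log2 fold of 0.65 and 279 reads. At W5 and W8 the interval of the ratio to W0 held 1. Per length, Psmb9 was above Psmb8 in each library: their ratio of RPKM values (reads scaled by gene length and library depth) was 8.32 at W2, against 4.50 at W0.

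Psmb10, the third immunoproteasome subunit, is listed at 0 in all 5 libraries, so no fold was computed for it. The same holds for genes that most cells use, among them B2m, the light chain of MHC class I, so the 0 is not read as absence. In GENCODE M21 no exon base of Psmb10 is shared with another gene. Exons of Psmb9 share 5.79% of their length with Tap1 on the other strand, and those of Psmb8 share 14.7% with the antisense gene Gm20496, which had 0 counts. The strand setting of the counting is not given in the sources used, so reads in the Psmb9 and Tap1 overlap cannot be assigned to either gene.

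The PA28 genes were highest in the same library as the immunoproteasome subunits. Psme2 was at 115 CPM at W0, 235 CPM at W2, 167 CPM at W5, 124 CPM at W8 and 194 CPM at W11. Its ratio of W2 to W0 was 2.05 (1.93 to 2.18), with a log2 fold of 1.03. That call lies close to the criterion: the log2 fold was 0.97 with the deposited RPKM values and 0.95 with the trend over gene length removed, both under 2-fold. Psme1 was at 260 CPM at W0, 403 CPM at W2, 318 CPM at W5, 319 CPM at W8 and 344 CPM at W11, a ratio of W2 to W0 of 1.55 (1.48 to 1.61). Psme2b, a copy of Psme2, is listed at 0 in every library, and how reads shared by such copies were counted is not known from the labels.

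The other activators did not have their peak at W2. Psme3, the nuclear relative of PA28, was at 86.3 CPM at W0, 96.0 CPM at W2, 151 CPM at W5, 121 CPM at W8 and 81.6 CPM at W11. Psme4, which encodes the activator PA200, was at 119 CPM at W0, 106 CPM at W2, 158 CPM at W5, 165 CPM at W8 and 104 CPM at W11. The highest weeks of this pair are thus W5 and W8, and no week reached 2-fold. The count ratio of Psme2 to Psme3 was 1.84 times as high at W2 as at W0 (1.67 to 2.03), and 1.79 times as high at W11 as at W0 (1.62 to 1.99).

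**Figure D2:**
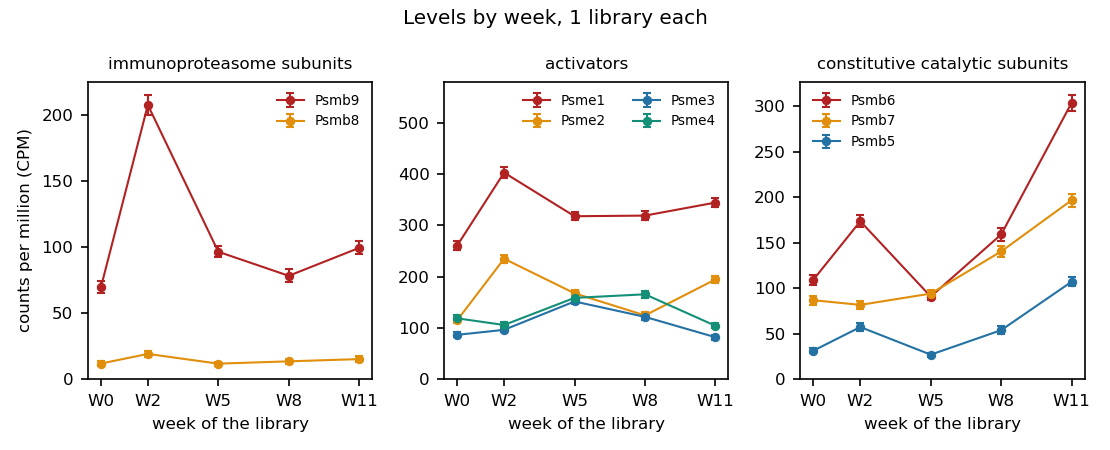
Level in CPM (vertical axes, starting at 0) at each week of the library (horizontal axes, weeks to scale, 1 library each) for immunoproteasome subunits, activators and the constitutive catalytic subunits, with bars for the exact 95% counting interval. Psmb9, Psme1 and Psme2 are highest at W2, Psme3 and Psme4 at W5 and W8, and Psmb5, Psmb6 and Psmb7 at W11.

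Genes that work with the immunoproteasome were described from lists of the class I pathway and of interferon gamma signalling. Tap1, the peptide transporter subunit that shares its promoter window with Psmb9, rose to 168 CPM at W2, against 66.8 CPM at W0 (log2 1.32), and stood at 54.9 CPM at W11 (log2 -0.28). Of 9 measured class I genes 1 rose at W2 and 0 fell, against 3.41% and 4.23% of all genes. Of the 9, 8 were above W0, and their median log2 fold was 0.58, against -0.02 for all genes. Within them Tapbp, which bridges the transporter to class I, was at 0.95, Tap2 at 0.87 and H2-D1, a class I heavy chain, at 0.78. At W11 1 of the 9 was above W0 and the median was -0.44, against -0.15 for all genes. The class I values are as counted, without removal of the trend over transcript length described below.

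The 7 measured genes of the interferon gamma list had a median log2 fold of -0.08 at W2. Nlrc5, the activator of class I transcription, had a log2 fold of 0.94 at W2, and Irf1, an interferon-induced transcription factor, one of 0.58. Ifng itself had at most 0.393 CPM in a library and was not measured by the criterion of 1 CPM.

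While Psmb9, Psme2 and Tap1 rose at W2, the summed leukocyte markers were at 1189 CPM, against 1948 CPM at W0, and without Jchain at 590.1 against 726 CPM. Most of the sum without Jchain was Lyz2, at 342 CPM at W2 and 480 CPM at W0. Of the 12 measured leukocyte markers 6 were above W0 at W2, so the sums do not show the list as a whole to be lower. Within that list Cd3d and Cd79b rose at W2 with log2 folds of 1.14 and 1.01, Csf1r and Jchain fell, with log2 folds of -1.32 and -1.03, and Ptprc, carried by leukocytes in general, was at 47.7 CPM in both libraries. The 5 smooth muscle markers summed to 5895 CPM at W2, against 4012 CPM at W0. The 7 epithelial markers summed to 18564 CPM at W2, against 24549 CPM at W0. Of these 7, 1 was above W0, and their median log2 fold was -0.31. Of the 5 fibroblast and 3 endothelial markers, Pdgfra (log2 -1.10) and Kdr (log2 -1.05) fell at W2 and 0 rose. Of all genes 4.23% fell and 3.41% rose at W2. The part of these markers in the W2 values was not tested.

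A ratio of a pair of genes within a library does not depend on the library total, so the immunoproteasome subunits were set against the subunits they replace. The ratio of Psmb9 to Psmb6 in RPKM was 0.283 (W0), 0.532 (W2), 0.473 (W5), 0.219 (W8) and 0.146 (W11). Psmb9 thus made up 22.0% of the pair at W0, 34.7% at W2 and 12.7% at W11. The W2 and W5 libraries lie above the control, and the W8 and W11 libraries below it.

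The change of that ratio from W0, taken on counts, was 1.88 at W2 (1.71 to 2.07) and 1.67 at W5 (1.51 to 1.86). It was 0.773 at W8 (0.692 to 0.864) and 0.514 at W11 (0.465 to 0.569), on a log2 scale -0.37 and -0.96. The W11 log2 change was -0.53 with the trend of all genes over gene length removed and -0.31 with length and GC content both removed. The numerator and the denominator contributed in different weeks: at W2 Psmb9 rose and Psmb6 had a log2 fold of 0.66, while at W11 Psmb9 had a log2 fold of 0.51 and Psmb6 rose, with a log2 fold of 1.47. At W5 Psmb9 was at 0.47 and Psmb6 at -0.27.

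The ratio of Psmb8 to Psmb5 in RPKM was 0.108 (W0), 0.0950 (W2), 0.124 (W5), 0.0715 (W8) and 0.0404 (W11). Its change from W0 was 0.885 at W2 (0.702 to 1.12) and 1.16 at W5 (0.906 to 1.47), so both intervals held 1. It was 0.664 at W8 (0.516 to 0.853) and 0.375 at W11 (0.297 to 0.475). Psmb8 was 3.88% of this pair at W11 and 9.71% at W0. With the length trend removed the W11 log2 change was -0.82, against -1.41 as counted, which is under 2-fold.

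**Figure D3:**
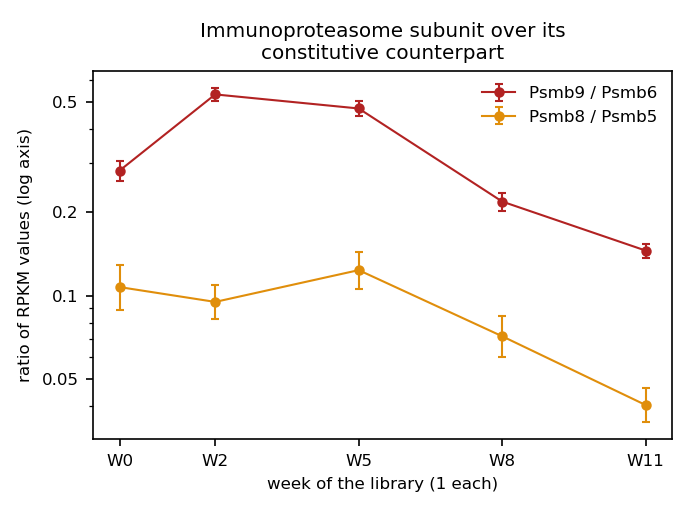
Ratio of RPKM values of each immunoproteasome subunit to the subunit it replaces (vertical log axis) at each week of the library (horizontal axis, weeks to scale, 1 library each), with bars for the exact 95% counting interval. Psmb9 over Psmb6 is highest at W2 (0.532) and is lowest at W11 (0.146), and Psmb8 over Psmb5 stays near 0.1 until W5 and is lowest at W11 (0.0404).

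The 31 constitutive subunits of the 20S core and the 19S particle together made up 0.408% of all counts at W0, 0.520% in W2, 0.502% in W5, 0.555% in W8 and 0.735% in W11. The W11 library is the highest, and W0 the lowest. Their median log2 fold over W0 was 0.37 (W2), 0.20 (W5), 0.47 (W8) and 0.82 (W11). The median of all genes was -0.02, 0.11, 0.11 and -0.15 in the same weeks. At W8 30 of 31 subunits and at W11 31 of 31 were above W0, against 28 at W2 and 21 at W5.

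At W11 the difference from W0 was larger for the 20S core than for the 19S particle. Of 14 core subunits 10 rose at W11, 5 alpha (Psma2, Psma3, Psma5, Psma6 and Psma7) and 5 beta (Psmb1, Psmb3, Psmb5, Psmb6 and Psmb7), with a median log2 fold of 1.30. Of 17 subunits of the 19S particle 0 reached 2-fold at W11, and their median was 0.53. With median-of-ratios scaling, which puts the median of all genes at W11 at 0.04 rather than -0.15, 12 of 14 and 4 of 17 reached 2-fold. With the length trend removed 6 of 14 core subunits reached 2-fold, with length and GC removed 4 of 14, and 0 of 17 in both cases for the 19S particle. The median of all genes at W11 was -0.16 with length removed and -0.15 with both removed. No share of all genes past 2-fold is given for these alternatives, so their counts have no background beside them. Summed counts of the core were 2.25 times as high at W11 as at W0 (2.22 to 2.29), and those of the 19S particle 1.46 times as high (1.44 to 1.48).

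Counts of the core relative to the 19S particle restate the same sums without the library total, and are not a second line of evidence. The count ratio, not scaled by length, was 0.746 (W0), 0.887 (W2), 0.860 (W5), 0.784 (W8) and 1.15 (W11). Per length, the core median over that of the 19S particle in RPKM was 1.34 at W0 and 2.00 at W11. The change of the count ratio from W0 was 1.54 at W11 (1.51 to 1.57) and 1.19 at W2 (1.16 to 1.22). Relative to W2, which had a core median of 0.51 over W0, Psma3, Psma7 and Psmb7 rose at W11 (3 of 47 measured proteasome genes, against 9.25% of all genes).

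Cell markers differed between the same libraries. At W11, 4 of 12 measured leukocyte markers rose (Cd3d, S100a8, S100a9 and Jchain) and 0 fell. In that library 2 of 7 epithelial markers fell (Cdh1 and Krt20) and 0 rose, and 1 of 5 smooth muscle markers fell (Myh11). Of all genes 11.3% rose and 16.9% fell. Summed, the leukocyte markers were at 4140 CPM at W11, against 1948 CPM at W0 (1364 against 726 CPM without Jchain), the epithelial ones at 16365 CPM, against 24549 CPM, and the smooth muscle ones at 2579 CPM, against 4012 CPM. Of 3 endothelial markers Kdr fell (log2 -1.44), and they summed to 76.7 CPM at W11, against 139 CPM at W0, while 0 of 5 fibroblast markers reached 2-fold, at 1203 CPM, against 1013 CPM. Across all genes the median log2 fold at W11 was 0.68 in the decile of shortest transcripts and -0.84 in that of longest. Of the markers that fell, Cdh1, Myh11 and Kdr have longest transcripts of 4430, 6549 and 5924 bases, and Krt20 one of 1927. Of those that rose, S100a8 and S100a9 have 498 and 519 bases, Cd3d 1617 and Jchain 2341. The part of transcript length in the marker values was not tested, nor was the part of these markers in the W11 values of the core.

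**Figure D4:**
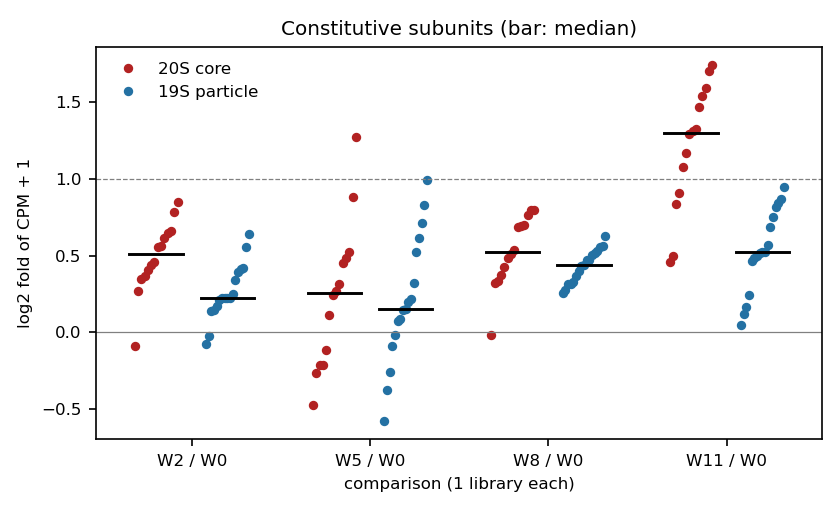
Log2 fold of CPM + 1 over W0 (vertical axis) of each constitutive subunit of the 20S core (red) and of the 19S particle (blue) in the 4 comparisons (horizontal axis, 1 library each), sorted by value within a group, with a bar at the median and a dashed line at 2-fold. At W11 the core median is 1.30 and that of the 19S particle 0.53, and 10 of 14 core subunits lie above the dashed line.

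Among the catalytic subunits, Psmb5, which cuts after hydrophobic residues, was at 31.2 CPM at W0, 57.2 CPM at W2, 26.8 CPM at W5, 53.8 CPM at W8 and 107 CPM at W11. It had the largest log2 fold of the constitutive subunits at W11, 1.75, with a ratio to W0 of 3.43 (3.08 to 3.82). Psmb6, which cuts after acidic residues, was at 109 CPM at W0, 173 CPM at W2, 90.6 CPM at W5, 159 CPM at W8 and 304 CPM at W11. Both had the same order of weeks, with W5 the lowest library and W11 the highest.

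Psmb7, which cuts after basic residues, was at 86.7 CPM at W0, 81.6 CPM at W2, 93.9 CPM at W5, 140 CPM at W8 and 197 CPM at W11. It lacked the higher value at W2: its ratio of W2 to W0 was 0.941 (0.868 to 1.02). Relative to Psmb6, its counts at W2 were 0.592 times those at W0 (0.534 to 0.657), whereas Psmb5 relative to Psmb6 stayed within 1.04 to 1.23 times its W0 value in all 4 weeks. Exons of Psmb7 share 11.8% of their length with Nek6 on the other strand.

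Of the alpha subunits, which form the outer rings and the gate of the core, Psma7 had the largest log2 fold at W11 (1.71). It was at 173 CPM at W0, 265 CPM at W2, 124 CPM at W5, 281 CPM at W8 and 566 CPM at W11. Psma1 had the smallest (0.46), at 199 CPM at W0, 293 CPM at W2, 273 CPM at W5, 197 CPM at W8 and 274 CPM at W11. Psma1 was thus highest at W2, where Psma7 was highest at W11.

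The other alpha subunits that rose at W11 were highest there as well. Psma5 was at 38.8 CPM at W0, 67.5 CPM at W2, 48.6 CPM at W5, 68.1 CPM at W8 and 119 CPM at W11, and Psma3 at 51.4 CPM at W0, 66.5 CPM at W2, 61.0 CPM at W5, 83.6 CPM at W8 and 151 CPM at W11. Psma6 was at 124 CPM at W0, 195 CPM at W2, 106 CPM at W5, 215 CPM at W8 and 309 CPM at W11. Psma2 was at 149 CPM at W0, 198 CPM at W2, 180.0 CPM at W5, 213 CPM at W8 and 366 CPM at W11. Of these 4, only Psma6 was below W0 at W5. Psma4 had another course, at 160 CPM at W0, 217 CPM at W2, 390 CPM at W5, 225 CPM at W8 and 301 CPM at W11, and it was the only member to rise at W5 (log2 1.28).

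Of the beta subunits without a cutting site, Psmb3 was at 118 CPM at W0, 150.3 CPM at W2, 170 CPM at W5, 159 CPM at W8 and 297 CPM at W11. Psmb1 was at 203 CPM at W0, 300.1 CPM at W2, 375 CPM at W5, 256 CPM at W8 and 429 CPM at W11. Both rose at W11, with log2 folds of 1.33 and 1.08, while Psmb4 was at 384 CPM at W11 and 215 CPM at W0, a log2 fold of 0.84. Psmb2 had the smallest log2 fold of the beta subunits at W11 (0.50), at 87.7 CPM at W0, 121 CPM at W2, 80.8 CPM at W5, 110 CPM at W8 and 124 CPM at W11. Per length, the 14 core subunits ranged from 3.95 RPKM (Psma3) to 38.8 RPKM (Psmb4) at W0, and from 11.5 RPKM (Psma3) to 77.1 RPKM (Psma6) at W11.

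At W11 the log2 folds of the 19S particle were lower and more even than those of the core, with a standard deviation over subunits of 0.27, against 0.41. Of its 6 ATPases Psmc6 had the largest log2 fold at W11 (0.84), at 71.6 CPM at W0, 83.9 CPM at W2, 103 CPM at W5, 99.6 CPM at W8 and 129 CPM at W11. Psmc2 had the smallest (0.47), at 118 CPM at W0, 138 CPM at W2, 131 CPM at W5, 161 CPM at W8 and 164 CPM at W11. None of the 6 was below W0 at W2, W8 or W11.

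Of the 11 non-ATPase subunits, Psmd8, a subunit of the lid, had the largest log2 fold at W11 (0.95), at 203 CPM at W0, 237 CPM at W2, 156 CPM at W5, 245 CPM at W8 and 392 CPM at W11. Psmd3, another lid subunit, had the smallest (0.05), at 193 CPM at W0, 183 CPM at W2, 297 CPM at W5, 250 CPM at W8 and 200.3 CPM at W11. Psmd14, which removes ubiquitin from the substrate, was at 86.6 CPM at W11 and 53.3 CPM at W0, and the ubiquitin receptor Psmd4 at 276 CPM at W11 and 195 CPM at W0. The other 19S subunits lay between these extremes at W11.

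The weeks also differed in how evenly the subunits moved. The standard deviation of the log2 folds over the 31 constitutive subunits was 0.24 (W2), 0.44 (W5), 0.18 (W8) and 0.48 (W11), while that over all genes was 0.59, 0.61, 0.78 and 1.02. W8 was the most even library: the 17 subunits of the 19S particle lay between 0.25 and 0.63. At W5 they lay between -0.58 (Psmc5) and 1.00 (Psmd7, just under 2-fold before rounding), and the core between -0.47 (Psma7) and 1.28 (Psma4).

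At W5 log2 folds tended to be lower in transcripts with more GC, among the subunits as among all genes. Across the 31 subunits the rank correlation (Spearman's rho, given as a description) of log2 fold with the GC content of the longest transcript was -0.42 at W5, and across all genes -0.37. Psma4 has 45.0% GC and Psma7 57.4%. Other subunits were out of that order: Psma2, with 39.4% GC, was at 0.27 and Psmd3, with 55.4%, at 0.62. Psma4 itself was at 1.18 at W5 with the GC trend removed, against 1.28 as counted. With the GC trend of all genes removed, the core median at W5 was -0.03, against 0.26 as counted, and that of the 19S particle 0.11, against 0.16. The part of base composition in the W5 values was not tested.

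Across all genes the W11 values moved with transcript length. For all genes the median log2 fold at W11 was 0.68 in the decile of shortest transcripts and -0.84 in the decile of longest, and rho was -0.47 across all genes and -0.43 across the 31 subunits. The core genes have shorter transcripts (median 1220 bases, from 859 to 2911) than those of the 19S particle (median 1983 bases, from 1387 to 3466). The 31 subunits thus mix these groups, and no correlation within the core was computed. In the core the longest transcripts, Psma2 (2911 bases), Psmb7 (2849) and Psma3 (2846), were at 1.29, 1.17 and 1.54. Among short ones, Psma1 (1201 bases) was at 0.46, Psmb2 (859) at 0.50 and Psmb5 (899) at 1.75. With the trend of all genes over gene length (taken from the ratio of the deposited columns) removed, the core median at W11 was 0.97 with 6 of 14 at 2-fold or more, and that of the 19S particle 0.43 with 0 of 17. With the trends of length and GC both removed these medians were 0.87, with 4 of 14, and 0.22. Of all 47 measured genes, 8 were at 2-fold or more with the length trend removed and 6 with both removed, against 14 as counted. The 11.3% of all genes that rose at W11 applies to the values as counted only. The core median stayed above that of the 19S particle in both cases, and the part of transcript length in the W11 values was not tested further.

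**Figure D5:**
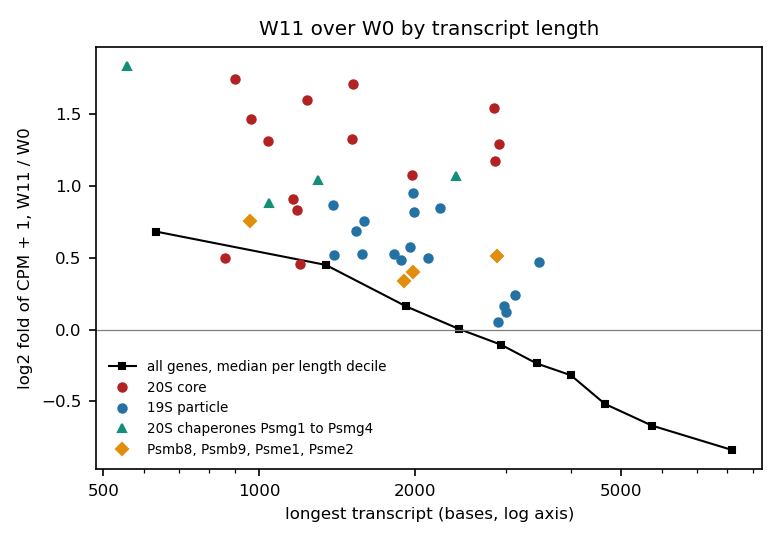
Log2 fold of CPM + 1 at W11 over W0 (vertical axis) against the length of the longest transcript (horizontal log axis) for the proteasome genes named in the legend, with the median of all genes in each decile of transcript length as black squares at the median length. The all-gene line runs from 0.68 to -0.84, and most core subunits lie above it, from 0.46 (Psma1) to 1.75 (Psmb5).

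The chaperones that build the core were highest at W11, as the core was. Psmg1 and Psmg2 form a pair, and Psmg3 and Psmg4 another, that assemble the alpha ring, and 3 of these 4 genes rose at W11 while all 4 were at least 1.5-fold higher at W2. Psmg4 was at 9.65 CPM at W0, 18.9 CPM at W2, 11.4 CPM at W5, 17.7 CPM at W8 and 37.0 CPM at W11, the largest log2 fold of all members at W11 (1.83). Psmg2 was at 11.1 CPM at W0, 19.4 CPM at W2, 13.1 CPM at W5, 16.1 CPM at W8 and 23.9 CPM at W11. Its log2 fold at W11 was 1.04, and 0.69 with the length trend removed.

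Psmg1 did not reach 2-fold, at 22.9 CPM at W0, 36.0 CPM at W2, 35.3 CPM at W5, 35.2 CPM at W8 and 43.2 CPM at W11. Psmg3 was measured on few reads, from 18 at W5 to 71 at W11, and stood at 1.74 CPM at W0, 3.62 CPM at W2, 0.883 CPM at W5, 3.06 CPM at W8 and 4.75 CPM at W11. Its ratio of W11 to W0 was 2.73 (1.70 to 4.53), and its log2 fold was 0.90 with the length trend removed, under 2-fold. Its counting interval is thus the widest of the core chaperones. Pomp, the factor that guides the maturation of the beta ring, was at 106 CPM at W0, 190 CPM at W2, 71.1 CPM at W5, 146 CPM at W8 and 309 CPM at W11. Its low at W5 and its rise at W11 (log2 1.53) are the pattern of Psmb5 and Psmb6.

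None of the 19S chaperones and not the inhibitor reached 2-fold in any week. Psmd5, Psmd9 and Psmd10, which help to assemble the ATPase ring, had log2 folds at W11 of 0.20, 0.85 and 0.03, and Psmd10 had no more than 31 reads in a library. Exons of Psmd9 share 25.5% of their length with the gene Gm26745 on the other strand. Psmf1, an inhibitor of the core in vitro, was at 46.1 CPM at W0, 57.0 CPM at W2, 56.7 CPM at W5, 57.1 CPM at W8 and 42.0 CPM at W11, within 1.24 times the W0 level throughout.

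Some members are known for a role in another tissue or carry a name that only refers to a subunit. Psma8, the alpha subunit of the testis, had between 1 and 4 reads in a library, and Psmb11, the beta subunit of the thymic cortex, between 0 and 3, so no fold is given for either. Psmc3ip was at 3.70 CPM at W0, 6.63 CPM at W2, 3.93 CPM at W5, 8.66 CPM at W8 and 13.6 CPM at W11, with log2 folds of 1.04 at W8 and 1.63 at W11. The W8 call is close to the criterion and is lost with 7 of the alternatives tried. Exons of Psmc3ip share 21.2% of their length with Mlx on the other strand. Psme3ip1 stayed within 1.5-fold of W0, from 55.1 to 80.3 CPM.

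Of the 14 measured partners of the proteasome, 3 rose at W11 and 0 fell, against 11.3% and 16.9% of all genes. Their median log2 fold was 0.16, against -0.15 for all genes. The 3 partners that rose were Pomp, Txnl1, a thioredoxin-like protein bound to the 19S particle (log2 1.01), and Sem1, a small subunit of the lid. Sem1 was at 115 CPM at W0, 205 CPM at W2, 64.3 CPM at W5, 150 CPM at W8 and 351 CPM at W11, the same order of weeks as Pomp. At W5 Uchl5, a deubiquitinase of the particle, rose (log2 1.09) and Adrm1, the ubiquitin receptor that anchors it, fell (log2 -1.02), and at W8 Zfand5, a proteasome-binding zinc finger protein, rose (log2 1.06).

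Of 5 listed genes known for the transcription of proteasome genes, 0 were above W0 at W2 and 1, Nfe2l3, was above it at W11. Their median log2 fold was -0.38 at W2 and -0.96 at W11, against -0.02 and -0.15 for all genes. Nfe2l1, which raises proteasome genes when the proteasome is inhibited, was at 114 CPM at W11 and 229 CPM at W0 (log2 -0.99), and Nfe2l2, the factor of the oxidative stress response, was at 114 CPM at W11 and 224 CPM at W0 (log2 -0.96). Ddi2, the protease that activates the Nfe2l1 protein, fell at W11 (log2 -1.28). Its longest transcript has 9553 bases, and all genes in the decile of longest transcripts had a median of -0.84 at W11. Nfe2l3, a relative of Nfe2l1, was at 3.99 CPM at W0, 3.35 CPM at W2, 14.3 CPM at W5, 39.9 CPM at W8 and 50.4 CPM at W11, and rose at W5 (log2 1.62), W8 (3.03) and W11 (3.37). Of these 5 genes 1 rose and 1 fell at W11, against 11.3% and 16.9% of all genes. The ARE letters sought above were in the windows of 4 of the 25 constitutive subunits with an entry, against 12.4% of all windows.

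Of 9 measured genes that make, attach or extract ubiquitin, 1 rose at W11 and 0 fell, against 11.3% and 16.9% of all genes. Their median log2 fold was -0.01, against -0.15 for all genes. The gene that rose was Rps27a, a fusion of ubiquitin and a ribosomal protein, at 1085 CPM at W11 and 152 CPM at W0 (log2 2.83). Rps27a also rose at W5 (log2 1.31). Its longest transcript has 928 bases, and all genes in the decile of shortest transcripts had a median of 0.68 at W11. Ubb, a gene of several fused ubiquitin copies, had a log2 fold of 0.70 at W11. Vcp, the ATPase that extracts ubiquitin-tagged proteins, had a log2 fold of -0.76 at W2 and 0.04 at W11. Summed, the 9 genes were at 3075 CPM at W11, against 2037 CPM at W0, so the sum was higher at W11 while the median was near 0.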

How the data were processed

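RNA sequencing of mouse colon was analysed in 5 libraries, 1 per week. TRIzol and an Illumina TruSeq RNA kit were used, per the labels' protocols. The tools HISAT2 2.2.1, featureCounts and FastQC and the builds GRCm38, GRCm39 and mm39 are named per the submitters' processing notes. Not given in the sources used here are annotation, strand setting and the handling of multi-mapped reads.

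Whole-number read counts fill the deposited columns headed TPM, with a different total per library, and the deposited columns headed count hold RPKM-like values. In 2620 genes over 5 RPKM in each library, the ratio of the columns was scaled by its median per library. It then stayed within 0.135% of each gene's median over the libraries, so the headers were taken as exchanged.

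CPM is counts over the library total times 1000000, and folds are differences of log2(CPM + 1), a scale on which changes of low genes come out too small. Genes averaging at least 1 CPM were kept. Called means 2-fold, with 1.5-fold as a second rule and no test, since each week has 1 library. Exact 95% intervals of ratios are conditional (Clopper-Pearson) and cover counting error only. A floor of 3 counts is 0.147 to 0.224 CPM. Levels of different genes were compared only on the RPKM scale.

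Values in all libraries are given for catalytic subunits, activators, inhibitor, core chaperones, called members and the highest and lowest log2 fold at W11 in each role. From each related list up to 4 genes with the largest folds at W2 or W11 are named, and others were named after their values were seen. Some genes of these lists are not reported here. The members and lists were chosen with earlier results of these data known. For transcript length, GC content and exon overlap GENCODE M21 was used, where 99.5% of identifiers were found. Promoter windows come from RefSeq. The steps were tested on simulated counts. Other settings numbered 11, with 2 more added after seeing the data, the removal of the GC trend alone and with length. Software was scipy 1.17.1, pandas 2.3.3, numpy 2.4.6 and matplotlib 3.10.9 under Python 3.11.15.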

Additional observations from a re-analysis of the deposited data

How the results depend on the processing

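No value of 2-fold or more against W0 changed sign under the 13 alternatives, which were pseudocounts, filters, scalings, baselines, the deposited RPKM values and the removal of length and GC trends. Of 408 recomputed main results 351 kept their value or their side of the criterion. That number does not measure robustness, since some results could not change. A ratio of a pair within a library is the same under every scaling of the library total. Shifts that stay under 2-fold also count as kept. Psmb9 to Psmb6 at W11, for example, went from -0.96 to -0.31 with length and GC removed. No replicate could be left out with 1 library per week. No paired analysis was possible because each week has 1 library. Differences between mice, and changes smaller than the counting error of genes with few reads such as Psmg3, Psmd10, Psma8 and Psmb11, cannot be seen at this depth.

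The baseline mattered most. With W2 as the baseline the log2 change of Psmb9 to Psmb6 was -0.17 (W5), -1.28 (W8) and -1.87 (W11), the median of Psmb8 and Psmb9 was -0.88, -0.94 and -0.69, and the constitutive median at W5 was -0.12. Psmb9, under 2-fold above W0 in these weeks, was then at -1.10 (W5), -1.40 (W8) and -1.06 (W11). The genes at least 2-fold higher were then 0 at W5, 0 at W8 and 3 at W11, those 2-fold lower 5, 1 and 1, those 1.5-fold higher 5, 2 and 15, and those 1.5-fold lower 11, 2 and 1. With W0 and W2 averaged as the baseline, which thus holds W2 itself, the median of Psmb8 and Psmb9 was 0.43 (W2), -0.45 (W5), -0.50 (W8) and -0.25 (W11), and Psmb9 to Psmb6 was -1.57 at W11. By that baseline 0 genes were 2-fold higher at W2 and 0 at W8, 0 were 1.5-fold higher at W2 and 2 at W8, and 5 were 1.5-fold lower at W5 and 1 at W8.

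With the length trend removed 8 genes were 2-fold higher at W11, 1 at W2, 2 at W5 and 0 at W8, Psmb9 to Psmb6 was 1.10 at W2 and Psmb8 to Psmb5 was -0.82 at W11. With length and GC removed 6 were 2-fold higher at W11, 0 at W5 and 0 at W8, 15 were 1.5-fold higher and 1 lower at W11, and Psmb8 to Psmb5 was -0.96 at W11. With GC removed 2 were 2-fold higher at W5. With median-of-ratios scaling the constitutive median at W11 was 1.04, 22 genes were 2-fold higher at W11 and 0 at W8, 5 were 1.5-fold higher at W8 and 3 were 1.5-fold lower at W5. With folds centred on all genes 0 were 2-fold and 6 were 1.5-fold higher at W8, and 2 were 1.5-fold lower at W5. The RPKM values gave 1 gene 2-fold higher at W2 and 2 at W5. A pseudocount of 0.1 gave 2 genes 2-fold higher and 1 gene 1.5-fold lower at W5, one of 5 gave 0 2-fold higher at W8, and totals without abundant genes gave 2 genes 1.5-fold lower at W5. The cause of these differences was not tested. At W11 the 14 calls against W0 thus range from 3 to 22 over the alternatives. Shares of all genes are given only for the main setting and, at 2-fold, for W2 as the baseline. Counts under the other alternatives thus have no share of all genes beside them.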
